A study of Homo sapiens with 6 samples.

Results

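The interferon-stimulated genes examined here are 43 genes that cells switch on, or raise, after an interferon binds its receptor. They were chosen by gene symbol, from a list of antiviral effectors, regulators and chemokines whose rule used no measured value, and all 43 had a row among the 20442 genes measured by RNA sequencing. The cells were HK-2, an established human line made from immortalized proximal tubule cells of the kidney. There were 6 libraries. In 3 of them (control) the cells had received a control lentivirus, and in the other 3 (overexpression) a lentivirus carrying HNRNPF, the gene of the RNA-binding protein hnRNP F. Culture lasted 72 h with 30 mM glucose or, as the osmotic control, 30 mM mannitol, per the labels. They do not say which medium these libraries had, so glucose and mannitol cannot be separated here. The study lists 3 libraries of each group in each medium, so the 6 may share 1 medium. All libraries come from 1 cell line, and nothing in the labels places the 3 libraries of a group in cultures grown on separate days, so the spread behind the p-values is that of libraries and may be technical in part.

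HNRNPF itself went against its label. Its levels were 555, 563 and 589 FPKM (fragments per kilobase of transcript, scaled by the library's mapped fragments) in control replicates 1, 2 and 3, and 323, 350 and 321 FPKM in overexpression replicates 1, 2 and 3. The groups did not overlap: the level was 1.72-fold lower where overexpression was labelled, a log2 fold change of -0.78 with an SE of 0.061 (adjusted p = 0.000107 by limma). For that reason "labelled control" and "labelled overexpression" are used below as names of libraries, and a direction says only which libraries were higher. By RT-qPCR, the study reports hnRNP-F raised in HK-2 cells infected with the overexpression lentivirus. It gives the same gene ID for the vectors used in HK-2 cells and in mouse podocytes. Whether RNA of the insert is counted under HNRNPF here was not tested. The renal epithelial genes PAX8, KRT8 and KRT18 lay between 262 and 535 FPKM in all 6 libraries. Of 8 renal epithelial markers tested, KRT18 and CDH2 were lower where overexpression was labelled (by log2 fold changes of -0.20 and -0.47, limma adjusted p = 0.0233 and 0.00153) and GGT1 was higher (0.47, adjusted p = 0.00576), while the receptors and channel of the mature proximal tubule were at or near 0, LRP2 at 0 in all 6, CUBN at most 0.06 FPKM and AQP1 at most 0.71 FPKM. Of 10 leukocyte markers, 3 were high enough to test, and the defining markers PTPRC and CD3E did not exceed 0.10 FPKM. The summed leukocyte markers, nearly all CD68, were 170 to 186 FPKM in the labelled control libraries and 200.1 to 223 FPKM in those labelled overexpression. That sum was not tested, and CD68 itself fell short of the threshold (log2 fold change 0.20, limma adjusted p = 0.0534). CD14 did not pass either (0.31, adjusted p = 0.379). CSF1R was higher, at 1.64 ± 0.246 against 3.00 ± 0.139 FPKM (SD, n = 3 each, limma adjusted p = 0.00793). The part of these genes in the results below was not tested.

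Interferons are secreted proteins that warn neighbouring cells of a virus. Type I and type III interferons act through receptors that activate STAT proteins, which join the DNA-binding protein IRF9 in a complex called ISGF3 and bind the interferon-stimulated response element (ISRE) of their target genes. Interferon gamma acts through STAT dimers that bind a different element, the gamma-activated site (GAS). The products of the target genes sense foreign RNA, block viral entry, translation and release, and adjust the signal itself. Tubule epithelium carries the receptors and responds to these cytokines.

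Many of the members whose promoter could be read carry a core of the ISRE, and fewer carry one of the GAS. Promoters, taken from RefSeq (GRCh38.p14) as the 250 bases before and 50 bases after a gene start, were found for 33 of the 43 members. They were searched for the ISRE core GAAANNGAAA, on both strands (TTTCNNTTTC on the other), and for the palindromic GAS core TTCNNNGAA, where N is any base. The ISRE core was present for 23 of 33 members (69.7%) against 4.38% of the 27305 genes with a promoter and 3.79% of the 10126 such genes that were tested below. The GAS core was present for 10 of 33 members (30.3%) against 9.38% and 8.34% of the same sets. A match is a description of letters, and matches of both cores can overlap, as in IFITM1, BST2 and IFI27. Repeats at any other spacing were not counted. Members without a promoter in the table were IFITM2, IFIT2, GBP2, IRF3, MX2, OASL, USP18, IRF7, TRIM22 and OAS2.

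The upstream 250 bases are shown for 4 members that differed between the groups, 2 that were higher in the libraries labelled overexpression (IFITM3 and OAS1) and 2 that were lower (GBP1 and IRF1). The sequences run 5′ to 3′ on the gene's strand up to the base before the start, and capitals mark a core.
IFITM3, chr11:320861-321110, minus strand, ISRE cores: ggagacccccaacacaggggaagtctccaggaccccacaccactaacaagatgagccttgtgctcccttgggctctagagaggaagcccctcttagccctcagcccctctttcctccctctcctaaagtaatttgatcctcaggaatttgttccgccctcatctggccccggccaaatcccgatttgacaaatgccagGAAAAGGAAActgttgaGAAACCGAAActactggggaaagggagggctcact
GBP1, chr1:89065209-89065458, minus strand, ISRE core: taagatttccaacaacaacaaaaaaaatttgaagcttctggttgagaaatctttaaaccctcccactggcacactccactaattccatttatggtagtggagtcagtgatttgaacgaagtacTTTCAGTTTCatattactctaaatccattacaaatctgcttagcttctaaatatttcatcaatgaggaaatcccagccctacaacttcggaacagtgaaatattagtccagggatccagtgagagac
OAS1, chr12:112906712-112906961, plus strand, GAS core: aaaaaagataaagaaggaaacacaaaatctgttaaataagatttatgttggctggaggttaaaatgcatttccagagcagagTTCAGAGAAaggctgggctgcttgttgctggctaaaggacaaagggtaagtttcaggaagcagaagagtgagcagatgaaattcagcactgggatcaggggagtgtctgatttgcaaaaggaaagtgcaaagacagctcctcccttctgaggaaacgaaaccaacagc
IRF1, chr5:132490774-132491023, minus strand, GAS core: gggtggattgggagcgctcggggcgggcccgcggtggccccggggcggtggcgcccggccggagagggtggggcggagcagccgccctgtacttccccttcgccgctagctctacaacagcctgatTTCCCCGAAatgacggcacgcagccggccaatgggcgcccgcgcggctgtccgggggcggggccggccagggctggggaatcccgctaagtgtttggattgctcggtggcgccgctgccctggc
IFITM3 had a pair of ISRE cores close to its start, and GBP1 had 1 on the opposite strand. OAS1 and IRF1 had the GAS core and no match to GAAANNGAAA in this window. Near its end, OAS1 holds GAAA repeats spaced by 1 base (gaaacgaaa), which the search, set to 2 bases, could not count. For OAS1 the missing match therefore does not show that an ISRE is absent. With the cores as searched, a gene that was higher and a gene that was lower shared the ISRE core. Another such pair shared the GAS core.

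Shorter windows around the core are given for 3 further members that were higher (HERC5, IFIT1 and OAS3). They are also given for 5 abundant or family members that did not pass the test (ISG15, BST2, IFIT3, IFI6 and ISG20). Only members with a match are shown, so the likeness of the capitals was set by the search.
HERC5, chr4:88457045-88457054, ISRE core: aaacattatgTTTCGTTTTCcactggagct
IFIT1, chr10:89392520-89392529, ISRE core: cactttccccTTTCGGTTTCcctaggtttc
OAS3, chr12:112938462-112938471, ISRE core: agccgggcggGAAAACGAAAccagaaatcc
ISG15, chr1:1013390-1013399, ISRE core: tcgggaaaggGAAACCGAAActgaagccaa
BST2, chr19:17405751-17405760, ISRE core: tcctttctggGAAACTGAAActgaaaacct
IFIT3, chr10:89327875-89327884, ISRE core: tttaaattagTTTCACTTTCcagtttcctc
IFI6, chr1:27672339-27672348, ISRE core: ggagagagggGAAAATGAAActctgcagag
ISG20, chr15:88638947-88638956, ISRE core: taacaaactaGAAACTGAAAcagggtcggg
The ISRE core was found for 4 of the 5 higher members with a promoter, for 1 of the 2 lower members and for 16 of the 22 members that were tested and did not pass (72.7%). The GAS core was found for 1 of 5, 1 of 2 and 7 of 22. The same letters therefore stood before members that were higher, lower and not separated.

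**Figure D1:**
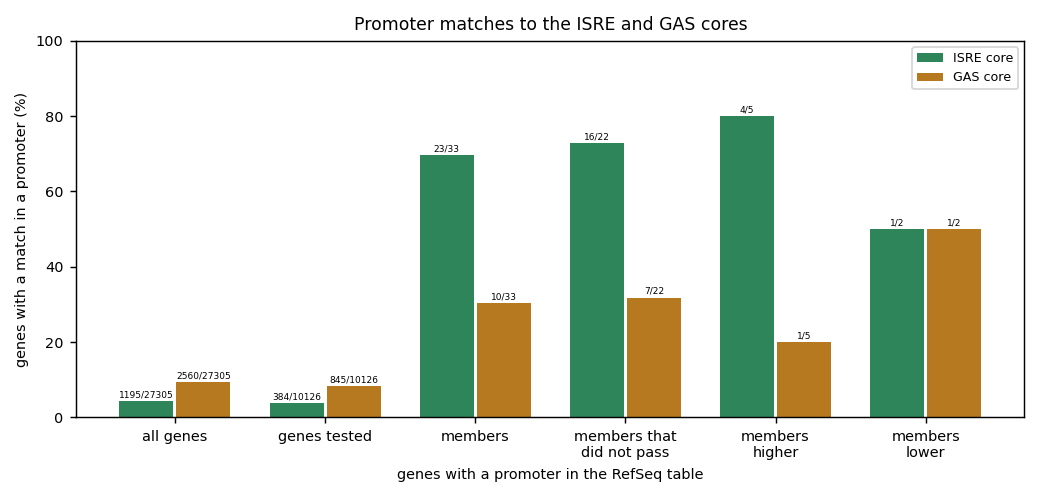
The vertical axis gives the percentage of genes with a match in at least 1 RefSeq promoter, and the fraction above each bar gives the genes with a match over the genes with a promoter. Green bars are the ISRE core and brown bars the GAS core. The ISRE core was present in 69.7% of members and 3.79% of genes tested.

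The first question was whether interferon-stimulated genes as a set differed between the libraries. Of the 43 members, 35 had a mean of at least 1 FPKM over the 6 libraries and were tested among 12461 genes with limma on log2(FPKM + 0.1), the scale of every fold change here. At a Benjamini-Hochberg adjusted p under 0.05, 9 of 35 passed (25.7%), against 24.4% of all genes tested. Higher in the libraries labelled overexpression were 6 members (17.1%, against 11.3% of all genes): USP18, IFITM3, OAS1, OAS3, IFIT1 and HERC5. Lower were 3 members (8.57%, against 13.1%): GBP1, GBP2 and IRF1. The groups did not overlap for 12 members (34.3%), 9 higher and 3 lower, against 42.1% of all genes. The median log2 fold change of the tested members was 0.10 and that of all genes -0.01, with 26 of 35 members above 0 against 5957 of 12461 genes. The shares that passed lie near the background of the whole comparison, so the number of changed members is not a result about the set. The larger number above 0 is given as a description, with no test. What follows concerns its individual genes. In bulk RNA, fewer cells that express a gene and less of its RNA per cell cannot be told apart.

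The counts depended on single libraries. Without overexpression replicate 3, 3 members were higher and 2 lower, and the share of all genes that passed was 13.6%. Without control replicate 2 the numbers were 4, 2 and 10%, without control replicate 1 they were 5, 3 and 14.7%, and without overexpression replicate 2 they were 4, 2 and 14.7%. The share of all genes went the other way without control replicate 3, to 34.1% with 6 members higher and 4 lower, and without overexpression replicate 1 it was 17.6% with 5 higher and 2 lower. The summed level of the 43 members was 1008 to 1053 FPKM in the labelled control libraries and 1044 to 1077 FPKM in those labelled overexpression, ranges that overlap.

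**Figure D2:**
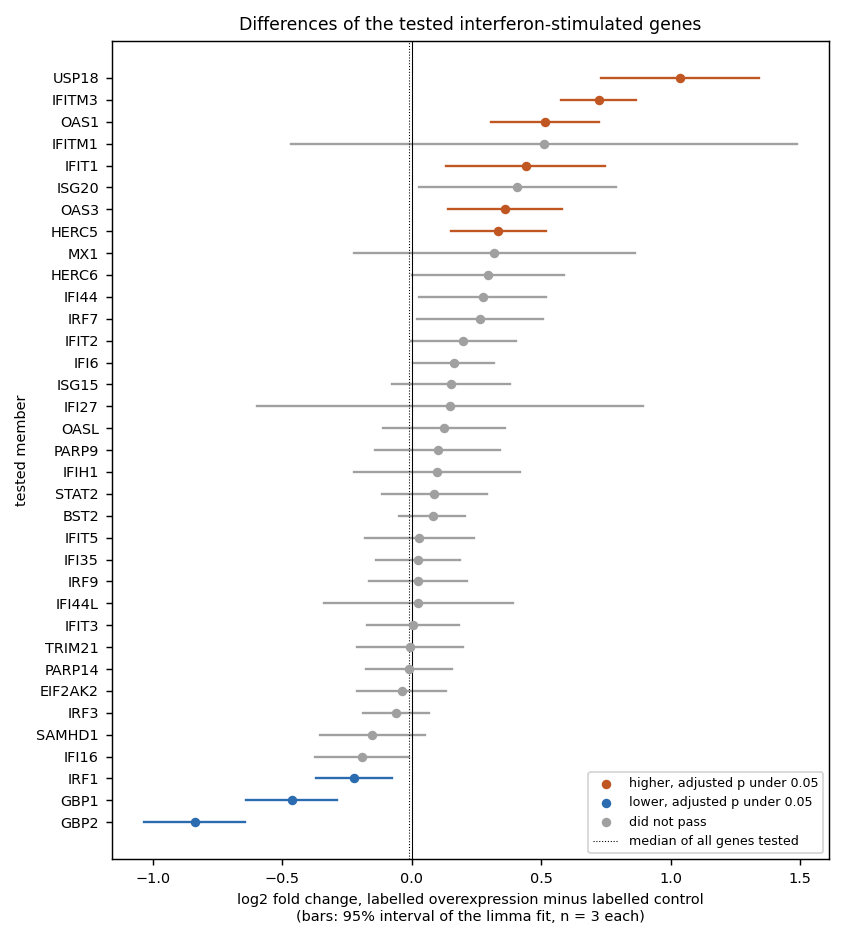
Each row is 1 of the 35 tested members, ordered by log2 fold change (labelled overexpression minus labelled control), with its 95% interval from limma as a bar. Orange marks the 6 members that were higher at an adjusted p under 0.05, blue the 3 that were lower and grey the 26 that did not pass. USP18 (1.03) and GBP2 (-0.84) are at the ends.

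**Figure D3:**
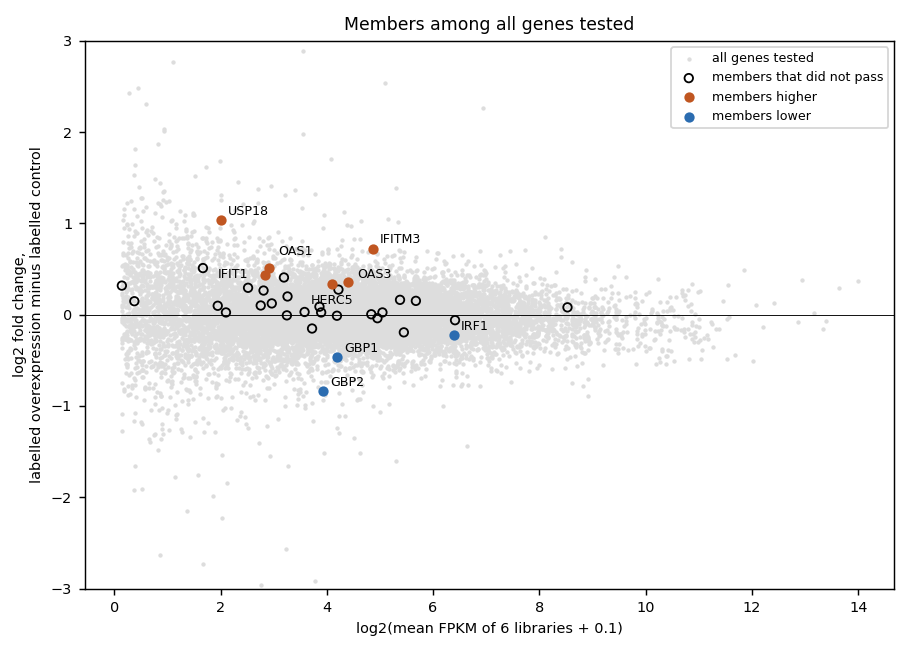
Log2 fold change (vertical) against log2 of the mean FPKM plus 0.1 (horizontal) for the 12461 genes tested (grey) and the 35 tested members (circles). The members lie within the cloud of all genes. The vertical axis is drawn to 3 on either side of 0, and 8 genes, no members among them, lie outside it.

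ISG15 conjugation held USP18, the largest fold change among the 35 tested members. ISG15 is a ubiquitin-like protein that is attached to other proteins, HERC5 is the ligase that attaches it in human cells, and USP18 is the protease that removes it and also a brake on the type I receptor. USP18 (gene ID 11274, chromosome 22, 18150170 to 18177397, GRCh38.p14) measured 2.54, 2.86 and 2.20 FPKM in labelled control replicates 1, 2 and 3 and 5.37, 5.06 and 5.37 FPKM in labelled overexpression replicates 1, 2 and 3. All labelled overexpression libraries were well above all labelled control libraries. The means were 2.53 ± 0.330 and 5.27 ± 0.179 FPKM (mean ± SD of 3 libraries), a 2.05-fold difference (log2 fold change 1.03, SE 0.136, limma adjusted p = 0.00136). Reads shared with near-identical copies of USP18 on the same chromosome would be lost to the count of unique reads, so its level is uncertain.

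HERC5 (gene ID 51191, chromosome 4, 88457119 to 88506163) measured 16.3, 14.2 and 14.7 FPKM in the labelled control libraries and 20.0, 18.4 and 18.7 FPKM in those labelled overexpression. The groups did not overlap, and the difference was 1.26-fold (log2 fold change 0.33, SE 0.082, limma adjusted p = 0.0181). This call was lost when control replicate 2 (adjusted p = 0.087) or overexpression replicates 1 (0.0629) or 3 (0.0534) were left out, and after the shift shared by neighbouring genes was removed (log2 fold change 0.22, adjusted p = 0.087). Its relative HERC6 did not pass, at 4.56 to 5.48 FPKM against 5.27 to 6.84 FPKM (log2 fold change 0.29), and HERC5 per HERC6 overlapped between the groups, at 2.91 to 3.11 and 2.68 to 3.79. ISG15, the most abundant gene of the role, measured 53.2, 48.0 and 43.7 FPKM in the labelled control libraries and 57.4, 46.2 and 57.6 FPKM in those labelled overexpression. Those ranges overlapped and the log2 fold change was 0.15 (95% interval -0.08 to 0.38, adjusted p = 0.299). USP18 per ISG15, as a ratio of FPKM within each library, was 0.048, 0.06 and 0.05 in the labelled control libraries and 0.094, 0.109 and 0.093 in those labelled overexpression. The transcript of the enzyme that removes ISG15 was thus more abundant relative to that of ISG15 in every library labelled overexpression.

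Among the genes that sense or act on double-stranded RNA, both tested OAS synthetases with 2′-5′ oligoadenylate activity were higher. OAS1 and OAS3 make the oligoadenylate that activates RNase L, and they lie next to each other. OAS1 (gene ID 4938, chromosome 12, 112906962 to 112933219) measured 6.53, 5.95 and 5.92 FPKM in the labelled control libraries and 8.87, 8.68 and 8.83 FPKM in those labelled overexpression. The latter 3 values were almost equal and above every control value. The difference was 1.43-fold (6.13 ± 0.34 against 8.79 ± 0.10 FPKM, SD of 3 libraries), with a log2 fold change of 0.51 (SE 0.093, limma adjusted p = 0.00568). OAS3 (gene ID 4940, chromosome 12, 112938474 to 112973251) measured 16.5, 17.7 and 21.0 FPKM and 22.8, 25.2 and 22.6 FPKM in the same order. Control replicate 3 came close to the other group, without overlap, and the difference was 1.28-fold (log2 fold change 0.36, SE 0.098, limma adjusted p = 0.0268). Leaving out any of 4 libraries ended this call, namely control replicates 1 (adjusted p = 0.084) and 2 (0.0996) and overexpression replicates 2 (0.0927) and 3 (0.0576). OAS1 per OAS3 overlapped between the groups, at 0.282 to 0.395 and 0.344 to 0.39.

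The other members of this role were not separated. EIF2AK2, the kinase PKR that halts translation, was the most abundant at 33.6, 31.2 and 29.0 FPKM against 29.1, 30.2 and 32.0 FPKM (log2 fold change -0.04, 95% interval -0.21 to 0.13). IFIH1, the RNA sensor MDA5, lay between 3.11 and 4.27 FPKM, and OASL, an OAS-like protein without synthetase activity, between 6.91 and 8.61 FPKM. OAS2 did not exceed 0.10 FPKM in any library, so per transcript length the 3 neighbouring synthetase genes ranged from near 0 for OAS2 to 16.5 to 25.2 FPKM for OAS3.

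Of the IFIT proteins, which bind viral RNA that lacks the cap modification of the host, IFIT1 passed the test and its partner IFIT3 did not. IFIT1 (gene ID 3434, chromosome 10, 89392623 to 89406487) measured 6.52, 4.84 and 6.64 FPKM in the labelled control libraries and 7.28, 8.53 and 8.52 FPKM in those labelled overexpression. Control replicate 2 was the lowest, and the groups did not overlap. The difference was 1.36-fold (log2 fold change 0.44, SE 0.138, limma adjusted p = 0.0443), and the call ended when control replicates 1 (adjusted p = 0.0554) or 2 (0.154, log2 fold change 0.29) or overexpression replicates 2 (0.126) or 3 (0.128) were left out, or when no filter on low values was used (0.0831). IFIT3, the most abundant IFIT, measured 28.4, 30.2 and 26.7 FPKM against 28.6, 30.5 and 26.4 FPKM. The 2 groups covered nearly the same range, with a log2 fold change of 0.00 (95% interval -0.18 to 0.18). IFIT1 per IFIT3 was 0.16 to 0.249 in the labelled control libraries and 0.254 to 0.323 in those labelled overexpression. IFIT2 was at 8.44 to 9.34 FPKM and 9.56 to 10.7 FPKM, without overlap and short of the threshold (adjusted p = 0.135), and IFIT5 did not pass (log2 fold change 0.03).

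Membrane restriction factors included the clearest difference in relation to its replicate spread. IFITM3 (gene ID 10410, chromosome 11, 319676 to 320860) encodes an endosomal membrane protein that hinders the fusion of viruses such as influenza. It measured 21.6, 21.3 and 22.6 FPKM in the labelled control libraries and 36.2, 36.7 and 35.2 FPKM in those labelled overexpression. The 2 groups were tight and far apart. The means were 21.8 ± 0.688 and 36.0 ± 0.756 FPKM (SD, n = 3 each), a 1.65-fold difference (log2 fold change 0.72, SE 0.065, limma adjusted p = 0.000204), and with the shift of neighbouring genes removed the log2 fold change was 0.53.

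Of its relatives on the same stretch of chromosome 11, IFITM1 did not pass and IFITM2 could not be tested. Their difference from IFITM3 was not tested, and the interval of IFITM1 includes the value of IFITM3. IFITM1, a related protein of the cell surface, measured 3.15, 4.11 and 0.94 FPKM against 3.37, 4.30 and 2.59 FPKM. Control replicate 3 stood apart, and the log2 fold change of 0.51 (95% interval -0.47 to 1.49, adjusted p = 0.412) became -0.10 without it. IFITM2 did not exceed 0.89 FPKM and was not tested. The IFITM genes are related in sequence, to a degree not computed here, so levels counted from unique reads are uncertain for all 3. BST2, or tetherin, which holds budding virus at the cell surface, was the most abundant member of the whole set at 371, 354 and 352 FPKM against 392, 370 and 377 FPKM. It made up 34.7% to 36.4% of the summed FPKM of the 43 members in every library, and its log2 fold change was 0.08 (95% interval -0.05 to 0.21, adjusted p = 0.327). With quantile normalization it was 0.16 and passed (limma adjusted p = 0.0436).

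**Figure D4:**
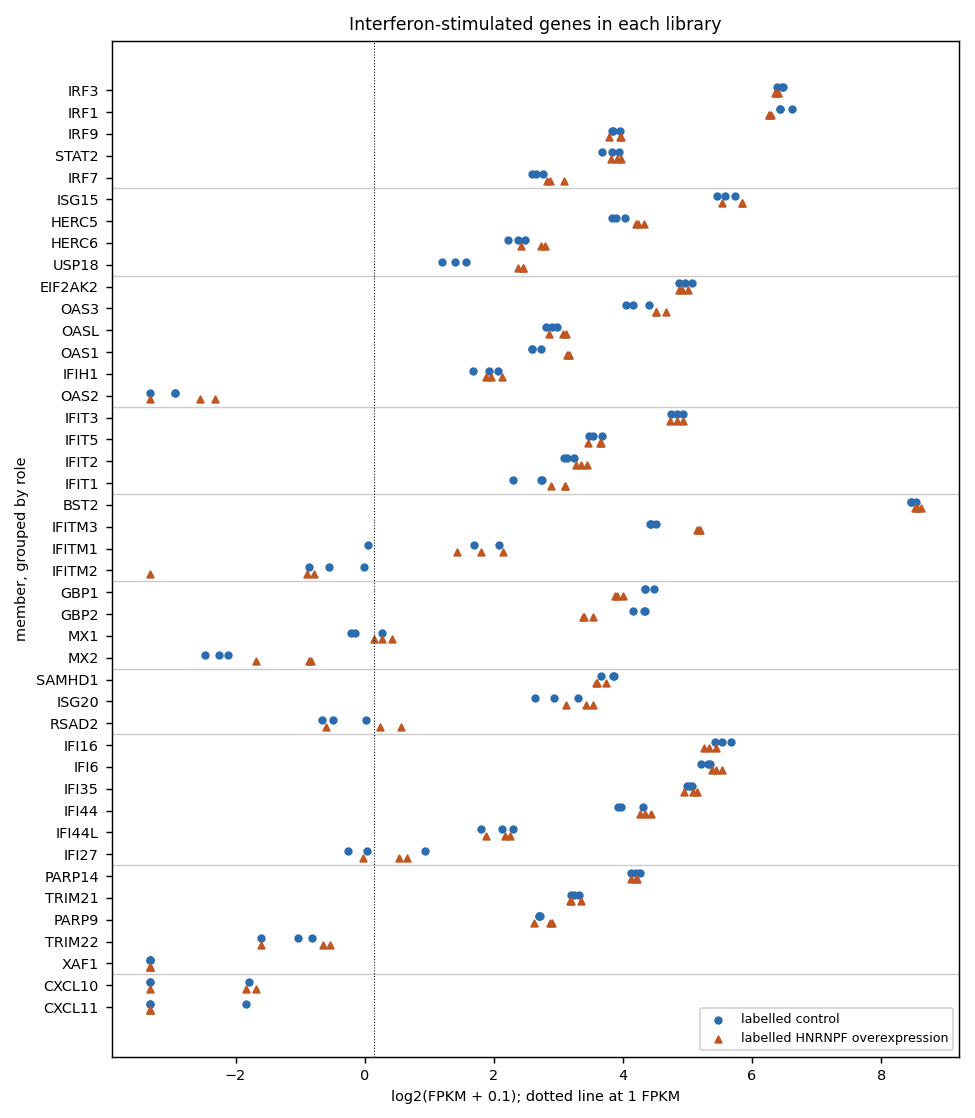
Each row is 1 of the 43 members, grouped by role, and each mark is 1 library on a log2(FPKM + 0.1) axis (blue circles, labelled control; orange triangles, labelled overexpression). BST2 lies far to the right at 352 to 392 FPKM. IFITM3 and USP18 show separated marks to the right for the libraries labelled overexpression, and GBP1 and GBP2 to the left.

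Of the 4 antiviral GTPases, GBP1 and GBP2 were lower in the libraries labelled overexpression. Guanylate-binding proteins coat vacuoles and membranes of intracellular pathogens and are known above all as targets of interferon gamma. GBP2 (gene ID 2634, chromosome 1, 89106132 to 89126114) measured 20.1, 20.2 and 17.7 FPKM in the labelled control libraries and 10.4, 11.5 and 10.4 FPKM in those labelled overexpression. Every labelled overexpression library was below every labelled control library. The difference was 1.79-fold (19.3 ± 1.42 against 10.8 ± 0.624 FPKM, SD of 3 libraries), with a log2 fold change of -0.84 (SE 0.087, limma adjusted p = 0.000396). GBP1 (gene ID 2633, chromosome 1, 89052319 to 89065208), its neighbour, measured 22.4, 20.2 and 20.3 FPKM and 14.6, 15.9 and 15.0 FPKM in the same order. It too was lower without overlap, by 1.38-fold (log2 fold change of -0.46, SE 0.078, limma adjusted p = 0.00407). GBP2 per GBP1 was 0.872 to 0.999 in the labelled control libraries and 0.696 to 0.72 in those labelled overexpression, so within the pair GBP2 was the lower by more. With the shift of the genes around them removed, both remained lower and past the threshold, at log2 fold changes of -0.69 for GBP2 and -0.32 for GBP1. GBP3, a relative on the same stretch of chromosome 1 that is not a member, did not pass. It measured 18.8, 19.6 and 17.4 FPKM against 17.7, 16.8 and 17.1 FPKM (log2 fold change -0.11, limma adjusted p = 0.31). The difference was thus not shared by all expressed GBP genes.

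The MX proteins, dynamin-like GTPases that trap viral nucleocapsids, were hardly detected. MX1 measured 0.76, 1.1 and 0.8 FPKM against 1.01, 1.11 and 1.24 FPKM and had the lowest mean of all tested members (log2 fold change 0.32, 95% interval -0.22 to 0.86). MX2 measured 0.08 to 0.13 FPKM against 0.21 to 0.46 FPKM. It lay under the minimum for testing, and with no filter on low values it passed (log2 fold change 1.15, limma adjusted p = 0.0395).

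Among the signal transducers and interferon regulatory factors, IRF1 was lower. IRF1, a transcription factor raised by interferon gamma that drives GBP genes among others, measured 86.5, 86.7 and 97.8 FPKM in the labelled control libraries and 78.3, 76.7 and 76.8 FPKM in those labelled overexpression. The groups did not overlap, although the difference was only 1.17-fold (90.3 ± 6.49 against 77.3 ± 0.918 FPKM, SD of 3 libraries), with a log2 fold change of -0.22 (SE 0.066, limma adjusted p = 0.0361). It was the smallest of the 9 differences that passed, and the call ended in the absence of control replicate 2 (adjusted p = 0.0814) or of overexpression replicate 1 (0.0728), 2 (0.088) or 3 (0.109), with quantile normalization (0.0589), or with the shift of neighbouring genes removed (0.122). IRF3, which is activated by nucleic acid sensors and starts interferon transcription, was as abundant at 83.7, 88.8 and 88.2 FPKM against 84.1, 81.6 and 84.1 FPKM (log2 fold change -0.06, 95% interval -0.19 to 0.07). The STAT2 and IRF9 subunits of ISGF3 lay at 12.7 to 15.6 FPKM and 13.7 to 15.5 FPKM, with log2 fold changes of 0.09 and 0.02 that did not pass. IRF7, which amplifies type I interferon production, was at 5.91 to 6.65 FPKM and 7.0 to 8.41 FPKM, without overlap and short of the threshold (adjusted p = 0.103).

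The remaining roles held no member past the threshold. Of the nucleases and nucleotide enzymes, SAMHD1, which depletes the deoxynucleotides that viruses need, was the most abundant at 11.9 to 14.5 FPKM (log2 fold change -0.15, 95% interval -0.35 to 0.05). ISG20, an RNA exonuclease, measured 7.51, 9.81 and 6.11 FPKM against 11.5, 8.59 and 10.7 FPKM. These overlapped through control replicate 2, the log2 fold change was 0.41 (95% interval 0.03 to 0.79, adjusted p = 0.107), and without that library it was 0.58 (adjusted p = 0.0443). RSAD2, or viperin, reached at most 1.37 FPKM and was not tested.

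None of the 6 IFI genes passed. IFI16, a nuclear DNA sensor, was the most abundant at 50.9, 46.02 and 42.7 FPKM against 38.3, 40.3 and 43.3 FPKM. Its overlap came from overexpression replicate 3 and control replicate 3 (log2 fold change -0.19, 95% interval -0.38 to -0.01, adjusted p = 0.107), and without control replicate 3 it passed (log2 fold change -0.25, adjusted p = 0.0331). IFI6 lay at 36.9 to 40.6 FPKM and 41.8 to 46.3 FPKM, without overlap and short of the threshold (adjusted p = 0.115). IFI44 was at 15.0 to 19.9 FPKM and 19.0 to 21.5 FPKM (log2 fold change 0.27, adjusted p = 0.0948) and passed without control replicate 1 (log2 fold change 0.40, adjusted p = 0.0201) and with the shift of neighbouring genes removed (log2 fold change 0.42, adjusted p = 0.00996). IFI35, IFI44L and IFI27 had log2 fold changes of 0.02, 0.02 and 0.15. Of the TRIM, PARP and XAF1 genes, PARP14 was the most abundant at 17.3 to 19.1 FPKM (log2 fold change -0.01, 95% interval -0.18 to 0.16), PARP9 and TRIM21 did not pass, TRIM22 did not exceed 0.59 FPKM, and XAF1 was listed at 0 in all 6 libraries. The chemokines CXCL10 and CXCL11, which attract activated T cells through CXCR3, did not exceed 0.21 and 0.18 FPKM. In total 8 members, RSAD2, CXCL10, CXCL11, IFITM2, TRIM22, OAS2, XAF1 and MX2, were under the minimum and 26 were tested without passing.

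**Figure D5:**
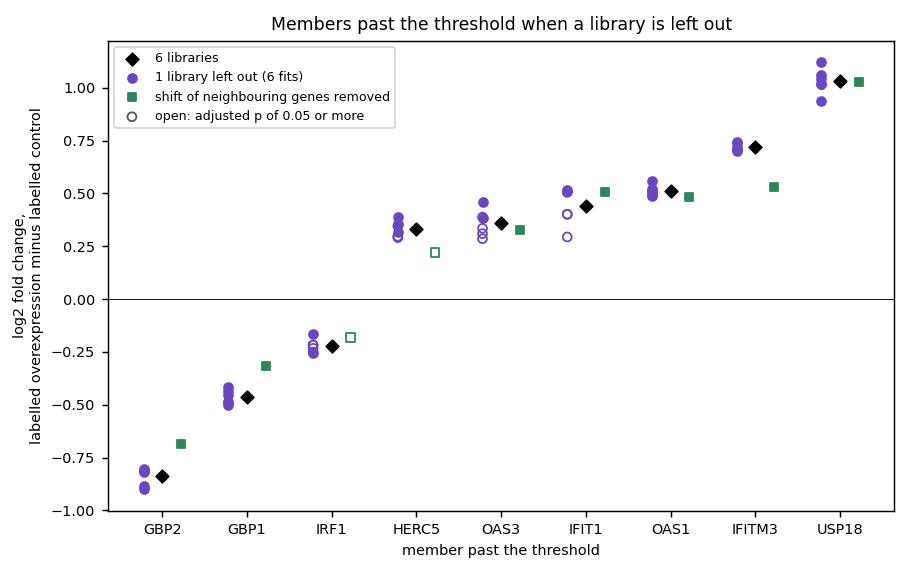
For the 9 members past the threshold, the log2 fold change from all 6 libraries (black diamonds), from the 6 fits that each left out 1 library (purple circles) and after removal of the shift shared by neighbouring genes (green squares). Open marks did not pass. USP18, IFITM3, OAS1, GBP1 and GBP2 have filled marks only.

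The rest of the interferon pathway was read from lists of genes around the members, with 24.4% of all genes as the background. Calls of these genes were not examined under the alternatives used for the members, such as leaving out a library. No interferon gene was expressed at a level that could be tested: of 21 ligand genes, 17 were listed at 0 in all 6 libraries and the highest value was 0.47 FPKM, for IFNE. Of 18 receptor and JAK-STAT genes tested, 2 were higher and 4 lower where overexpression was labelled, with a median log2 fold change of -0.07. SOCS3, a feedback inhibitor of cytokine receptors, measured 51.3, 58.5 and 72.8 FPKM against 81.9, 92.8 and 93.9 FPKM (log2 fold change 0.57, SE 0.116, limma adjusted p = 0.00874). Both chains of the interferon gamma receptor were lower. IFNGR1 measured 66.5, 60.6 and 56.2 FPKM against 47.4, 46.9 and 48.6 FPKM (log2 fold change -0.36, SE 0.073, adjusted p = 0.00896), and IFNGR2 measured 68.1, 64.6 and 64.0 FPKM against 47.5, 57.2 and 52.5 FPKM (log2 fold change -0.33, SE 0.076, adjusted p = 0.015). The type I receptor chain IFNAR2 was lower as well, at 28.3 to 31.7 FPKM and 22.8 to 25.3 FPKM (log2 fold change -0.29, adjusted p = 0.024). Not all receptor genes were lower. IL10RB, on the same list, was higher (log2 fold change 0.26, adjusted p = 0.0326). IFNAR1 and IFNLR1 did not pass (-0.15 and -0.26, adjusted p = 0.284 and 0.145).

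Of 16 nucleic acid sensors and adaptors tested, 3 were higher and 2 lower, with a median log2 fold change of 0.05. STING1, the adaptor of cytosolic DNA sensing, measured 8.04, 6.22 and 6.44 FPKM against 11.6, 12.3 and 10.9 FPKM (log2 fold change 0.75, SE 0.114, limma adjusted p = 0.00274). IRF2, a repressor of many IRF1 targets, was higher (0.41, adjusted p = 0.011), while MYD88, the adaptor of Toll-like receptors, and DDX58, the RNA sensor RIG-I, were lower (-0.53 and -0.47, adjusted p = 0.00381 and 0.0207). Of 35 other interferon-stimulated genes tested, 5 were higher and 3 lower (22.9%), with a median log2 fold change of -0.03. Named for the size of their log2 fold changes were APOL1 (-0.51), IFITM10 (0.49), TRIM14 (0.47) and SLFN5 (-0.39). Of 15 antigen presentation genes tested, 1 was higher and 3 lower, with a median of -0.06. B2M, the light chain of MHC class I, measured 1231, 1139 and 1044 FPKM against 917, 864 and 897 FPKM (log2 fold change -0.35, SE 0.073, limma adjusted p = 0.00992), ERAP2 and HLA-C were lower (-0.33 and -0.29), and TAPBP, the peptide-loading protein tapasin, was higher (0.33). Each of the lists with tested genes thus held genes of both directions, as did the 43 members. So did all genes tested (11.3% higher and 13.1% lower), and this is therefore not a result about the pathway.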

How the data were processed

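RNA of HK-2 cells was sequenced as strand-specific, paired-end poly(A) libraries, 3 labelled control and 3 labelled HNRNPF overexpression, grouped by sample titles. The authors trimmed reads, aligned them to GRCh38 with HISAT2, counted uniquely mapped reads and deposited FPKM values, 1 column per library. Their methods also name DESeq2, which needs counts and was not run here, and a batch adjustment with ComBat_seq. Whether the deposited FPKM carry that adjustment, and the annotation and counting tool, are not given in the sources used here. The depth of each library could not be recovered from the FPKM, and the read totals that the study lists by culture were not matched to these 6 libraries and not used here. FPKM corrects for length and library size, not for library composition, and 12396 to 12462 genes per library reached 1 FPKM.

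Differences were tested with limma 3.58.1 (R 4.3.3, moderated variance with trend, two-sided) on log2(FPKM + 0.1) for the 12461 genes with a mean of at least 1 FPKM, with Benjamini-Hochberg adjustment over all of them and a threshold of 0.05. On simulated data of this size, with the spread of the fit itself, it recovered 97 of 100 genes given a log2 change of 1. It recovered 100 of 100 given 2, and called 11 of 12261 unchanged genes. That last count belongs to the simulated spread, and the rate of false calls in the libraries themselves was not tested. Among the members only USP18 reached a log2 fold change of 1, and recovery of smaller changes was not simulated. Gene IDs and coordinates came from RefSeq (20164 of 20442 symbols matched) and promoters from RefSeq GRCh38.p14. None of 77 ribosomal protein genes was at 0 in any library. The members and lists were chosen with earlier results of these data known. Members past the threshold were given in full, and members with a log2 fold change of 0.3 or more in size, or the most abundant of their role, in short. From each pathway list up to 4 genes with the largest change past the threshold were named, and IL10RB, IFNAR1 and IFNLR1 were added from the receptor list. The replicates whose number coincided did not deviate together (r = 0.09, -0.09 and 0.01), so the main fit had no replicate block. Alternatives were other pseudocounts, filters, scalings and variance models, a replicate block, removal of the median shift of genes within 5 Mb on either side, and leaving out each library.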

Additional observations from a re-analysis of the deposited data

How the results depend on the processing

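USP18, IFITM3, OAS1, GBP1 and GBP2 kept their direction and passed the threshold under all 16 alternatives, except that USP18 was not tested at a minimum of 5 FPKM. IFIT1, OAS3, HERC5 and IRF1 kept their direction and lost the call under some of them, and without the variance trend IFIT1, OAS3 and IRF1 had adjusted p of 0.0652, 0.0544 and 0.0765 by limma. For the 9 members past the threshold and 3 others with a log2 fold change of at least 0.3 in size, there were 189 values under alternatives: 165 kept direction and side of the threshold, 22 fell short of it, 1 passed it (ISG20) and 1 changed sign (IFITM1, whose log2 fold change was -0.10 without control replicate 3 and 0.91 without control replicate 2). Of the other members, IFI44, IFI16, MX2 and BST2 passed under at least 1 alternative. The number of higher members, 6, was 3 without overexpression replicate 3 and 3 to 6 over the fits that left out 1 library, 4 without the variance trend, 5 at a minimum of 5 FPKM and 7 with quantile normalization, which added BST2. The number of lower members, 3, was 2 to 4 over the fits that left out 1 library and 2 without the trend, with quantile normalization or with the neighbour shift removed. With a replicate block 7 were higher and 3 lower, the added member being IFI44 (adjusted p = 0.0475), and since the numbers did not pair the libraries this is only an alternative. HNRNPF was lower and past the threshold under all alternatives run, with a log2 fold change of -0.82 to -0.57. Members under 1 FPKM, MX2, RSAD2 and the chemokines among them, are too low for these values to settle a difference.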
